A study of Mus musculus with 7 samples.

Results

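Chromatin accessibility was examined at 10 genes of the class I antigen presentation pathway (H2-K1, H2-D1, B2m, Tap1, Tap2, Tapbp, Psmb8, Psmb9, Nlrc5 and Irf1) in Dll1+ and Dll1− tumour cells from MMTV-PyMT mice, with the assay for transposase-accessible chromatin (ATAC-seq). All mice carried the PyMT oncogene under the MMTV promoter, which drives mammary tumours, and expressed mCherry from a bacterial artificial chromosome that reports on Dll1, a Notch ligand gene. Per the study's methods the mice were on the C57BL/6 background, the strain of the reference genome, and the tumours arose spontaneously. Tumour cells were depleted of CD45, CD31 and Ter119 positive cells and divided by mCherry into Dll1+ cells (3 samples) and Dll1− cells (4 samples). The 7 samples came from 4 tumours, 3 of which gave both populations, and no age is given in the labels. The authors deposited 1 pooled list of accessible regions for each population. No value per tumour was analysed, so no difference below could be set against the spread between tumours and none carries a p-value.

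Rows of both lists that overlapped or touched were merged into 119215 union regions, and each was given to whichever protein-coding gene had its start site (transcription start) nearest to the midpoint. This gave 39 regions to the class I genes. Nlrc5 had 8, H2-D1 7, Irf1 6, H2-K1 and Tap2 4 each, Tap1, Tapbp and Psmb8 3 each, and B2m 1. Psmb9 had 0, because its start lay inside a region whose midpoint was nearer to that of Tap1. The median over all 21827 protein-coding genes was 3 regions. By the position of the midpoint, 17 regions were intergenic, 10 were in introns, 6 in promoters, 4 in coding exons and 2 in a 5′ UTR.

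Class I molecules carry peptides from inside the cell to its surface, where CD8 T cells inspect them. H2-K1 and H2-D1 encode the heavy chains and B2m the shared light chain. Peptides are cut by the immunoproteasome, to which Psmb8 and Psmb9 contribute catalytic subunits, carried into the endoplasmic reticulum by the transporter of Tap1 and Tap2, and loaded with the help of tapasin, the product of Tapbp. Nlrc5 is the transactivator of class I genes and acts through the conserved S, X and Y boxes of their promoters, and Irf1 is a transcription factor induced by interferon gamma that binds interferon response elements. Tumours can escape T cells by losing parts of this pathway.

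Promoter letters are shown for H2-K1, B2m and Irf1, whose bases upstream of the RefSeq start were free, or nearly free, of annotated UTR. Those of H2-D1, Tap1, Tapbp, Psmb8 and Psmb9 were all or mostly annotated UTR. The bases upstream of a second RefSeq start of Irf1 held none of the motifs below and are not shown. A shorter stretch of H2-D1 follows. The sequences are the bases just upstream of the RefSeq start in GRCm38.p6, 5′ to 3′ on the strand of the gene, and RefSeq promoter windows (250 bases before to 50 after the start) were matched for 8 of the 10 genes. Capitals mark matches, on either strand, to GGGNNNNNCC (the core of an NF-kB site), GAAANNGAAA (the core of an interferon response element, bound by IRF factors), TTCNNNGAA (a GAS element, found at genes induced by interferon gamma), TGACG (the X2 box) and CCAAT (the Y box).
H2-K1, chr17:34000348-34000547, minus strand: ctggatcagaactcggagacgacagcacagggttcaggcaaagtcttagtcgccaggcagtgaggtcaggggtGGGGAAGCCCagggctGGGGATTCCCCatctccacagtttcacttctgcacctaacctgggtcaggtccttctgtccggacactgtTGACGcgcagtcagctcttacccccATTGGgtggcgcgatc
B2m, chr2:122147487-122147685, plus strand: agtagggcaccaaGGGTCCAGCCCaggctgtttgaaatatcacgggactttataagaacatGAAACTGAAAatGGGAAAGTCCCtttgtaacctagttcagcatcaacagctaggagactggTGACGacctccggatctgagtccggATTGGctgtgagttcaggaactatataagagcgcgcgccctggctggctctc
Irf1, chr11:53769814-53770013, plus strand: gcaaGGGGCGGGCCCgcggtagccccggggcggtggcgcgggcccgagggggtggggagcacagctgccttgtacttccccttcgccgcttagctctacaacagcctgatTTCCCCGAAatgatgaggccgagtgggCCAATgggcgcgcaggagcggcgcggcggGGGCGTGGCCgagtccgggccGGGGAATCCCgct

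An X2 core followed by the Y box in reverse, with 20 bases between them, was found in the windows of H2-K1, H2-D1 and B2m and in 31 of all 32851 RefSeq windows (0.0944%). The spacing was noticed after the sequences were read. The stretches are set side by side with the shared ends in capitals.
H2-K1, chr17:34000359-34000388, minus strand: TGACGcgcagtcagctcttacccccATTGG
H2-D1, chr17:35262993-35263022, plus strand: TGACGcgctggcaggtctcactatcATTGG
B2m, chr2:122147609-122147638, plus strand: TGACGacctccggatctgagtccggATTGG
The summits of accessibility lay on or next to this stretch. The strongest summit was 1 bp (Dll1+) and 2 bp (Dll1−) from the X2 core of B2m, 1 bp and 6 bp from that of H2-D1, and 32 bp and 38 bp from that of H2-K1. H2-K1 and H2-D1 are close paralogs, and 206 of 227 aligned bases of their RefSeq windows were identical (90.7%).

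The motifs were also searched singly. The 8 genes had 10 windows. The NF-kB core was in 7 of the 10 (6 genes) and in 50.8% of all windows. The Y box was in 8 (7 genes) and 37.4%. The X2 core was in 6 (5 genes, B2m, H2-D1, H2-K1, Psmb9 and Tap1) and 20.8%. The GAS element was in the windows of Irf1 and Psmb8 and in 8.30% of all windows. At Irf1 it lay 17 bp and 2 bp from the strongest Dll1+ and Dll1− summits. At Psmb8 it lay 408 bp and 418 bp from those of the start-site region. That match (chr17:34198098-34198106) was outside the start-site region, in the region 514 bp downstream. Weak summits lay near it there, at 34198128 in Dll1+ (percentile 5.54) and 34198096 in Dll1− (percentile 6.07). The IRF core was in the window of B2m and in 3.44% of all windows. TGANTCA, the AP-1 site, was in 0 of the 8 and in 7.81% of all windows.

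The accessible regions of the class I genes were shared by Dll1+ and Dll1− tumour cells. Of the 39 regions, 36 were in both lists (92.3%, Wilson 95% interval of counting error 79.7 to 97.3), against 66.4% of all union regions. Only 1 was in the Dll1+ list alone (2.56%, against 9.01% of all regions) and 2 were in the Dll1− list alone (5.13%, against 24.6%). These regions also lay close to genes, at most 21406 bp from a start, whereas the median over all union regions was 23094 bp, and overlap between the lists was not compared at matched distance.

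At the start sites, 9 of the 10 genes had a region in both lists, and 0 had one in a single list. A start-site region overlapped the window from 1000 bp upstream to 100 bp downstream of any protein-coding transcript start of the gene. Of all protein-coding genes, 60.0% had one in both lists, 114 of 21827 in the Dll1+ list alone, 660 in the Dll1− list alone and 7959 in neither. The exception was Tap2. Its only start in the basic GENCODE annotation is at 34203527 on chromosome 17, and its first region began 828 bp downstream. The full annotation has 3 starts for Tap2, the others at 34204080 and 34205100, and with it Tap2 also had a start-site region in both lists.

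The strength of a region is its fold enrichment, the reads at the summit over the local background, and it was compared as a percentile among all rows of the same list (100 is the strongest). The lists differed in depth. The genome-wide background recovered from the deposited values was 3.74 reads for Dll1+ and 7.20 reads for Dll1−, and reads at summits were scaled by the median ratio over all regions in both lists, which were 1.63-fold higher in Dll1−. A difference was called at 10 percentile points or at 1.5-fold in scaled reads. More cells with open chromatin and more open chromatin per cell cannot be told apart in these sorted populations.

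The heavy and light chain genes had start-site regions above the median of all genes with one in both lists. That median was at percentile 86.3 in Dll1+ and 88.9 in Dll1−, over 11948 strongest start-site regions. Medians and shares of all genes given below for rank and reads are over these regions. Where a gene had more than 1 start-site region the strongest was read, for the class I genes and for all others. The start-site region of H2-K1 (chr17:33999836-34000596) had a fold enrichment of 18.9 in Dll1+ and 22.4 in Dll1−, which placed it at percentiles 97.4 and 99.3. That of B2m (chr2:122147407-122148175) had 16.9 and 21.0, at percentiles 95.4 and 98.8. That of H2-D1 (chr17:35262632-35263263) had 12.8 and 16.1, at percentiles 87.8 and 94.96. All 3 ranked lower in Dll1+, with differences (Dll1+ minus Dll1−) of −1.88, −3.38 and −7.11 points, and none reached the call.

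Of the peptide supply genes, Tap1 and Psmb9, which are divergent neighbours, shared 1 start-site region (chr17:34186960-34187962), with a fold of 17.8 in Dll1+ and 17.0 in Dll1− and percentiles of 96.4 and 95.9. The region at the start of Psmb8 (chr17:34197325-34197877) had folds of 13.6 and 16.3 and percentiles of 89.6 and 95.2. That of Tapbp (chr17:33919304-33919795) was the weakest of the 8, with folds of 7.79 and 7.54 and percentiles of 67.6 and 70.8. Tapbp thus lay below, and the others of this group above, that median.

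Of the regulators, the start-site region of Nlrc5 (chr8:94433638-94434587) had a fold of 13.7 in Dll1+ and 10.8 in Dll1−, at percentiles 90.02 and 84.4, and was the one that ranked highest in Dll1+ relative to Dll1−. That of Irf1 (chr11:53769678-53770814) had folds of 11.1 and 9.72, at percentiles 83.0 and 81.0. Among genes with a start-site region in both lists, that of Irf1 lay below the median for Dll1+ and for Dll1−. That of Nlrc5 lay above it for Dll1+ and below it for Dll1−.

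**Figure D1:**
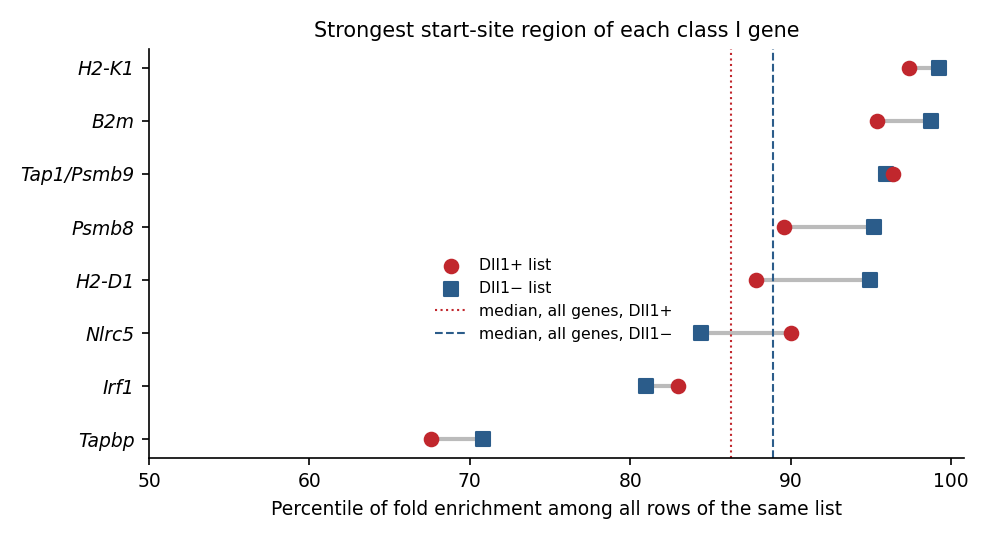
Percentile of fold enrichment (horizontal axis, within all rows of the same list; the axis starts at 50) of the strongest start-site region of each class I gene, in the Dll1+ list (circles) and the Dll1− list (squares), 1 pooled value each. Vertical lines are the medians of the strongest start-site regions of all genes with one in both lists, 86.3 for Dll1+ and 88.9 for Dll1−. The longest gap is that of H2-D1, with a difference of −7.11 points.

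None of the 8 differed by 10 percentile points, against 15.9% of the strongest start-site regions of all genes in both lists, and none by 1.5-fold in scaled reads, against 8.96%. Irf1 had a second, weaker start-site region 1133 bp upstream, which ranked 17.1 points lower in Dll1+. Counted with it, 1 of 9 start-site regions differed by rank, against 18.8% of all start-site regions, and 0 in scaled reads, against 9.66%. Percentiles near 100 leave little room for a gap of 10 points: ranked among promoters only, 4 of the 8 passed it (H2-D1 −17.7, Psmb8 −14.1 and B2m −11.3 points, lower in Dll1+, and Nlrc5 16.2, higher), against 26.1% of the strongest regions of all genes, or 5 of 9 with the second region of Irf1 (−13.5), against 25.1% of all start-site regions. Rank differences (Dll1+ minus Dll1−) ran from −7.11 (H2-D1) to 5.61 (Nlrc5), with a median of −2.56, and the median over the strongest regions of all genes was −1.69. The median scaled log2 read ratio was −0.05 for the class I genes and −0.06 for all genes. With reads scaled by the genome-wide backgrounds in place of the median ratio, all 8 log2 ratios were above 0 (0.0076 to 0.54), that of the second Irf1 region was −0.25 and again none passed 1.5-fold, so the sign of these small ratios rested on the scaling.

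Reads at the summits gave the same picture at a stated precision. H2-K1 had 353 reads in Dll1+ and 557 in Dll1−, a scaled log2 ratio of 0.05 (95% interval of counting error −0.15 to 0.24). B2m had 374 and 634 (−0.06, interval −0.25 to 0.13), and Tap1 and Psmb9 shared 247 and 413 (−0.04, interval −0.27 to 0.19). All 3 intervals lay inside 1.5-fold.
H2-D1 had 298 and 559 reads (−0.20, interval −0.41 to 0.0024) and Psmb8 190 and 364 (−0.23, interval −0.49 to 0.02), the lowest ratios of the 8. Nlrc5 had the fewest reads, 109 and 144, and the highest ratio (0.30, interval −0.07 to 0.67). The interval of Nlrc5 alone reached past 1.5-fold, so with this scaling a difference of that size could not be told from none at its depth. With the genome-wide backgrounds in place of the median ratio, the start-site intervals of Nlrc5 and H2-K1 lay above 0, and those of the other genes included 0. Tapbp had 216 and 383 reads (−0.12, interval −0.37 to 0.12) and Irf1 189 and 310 (−0.01, interval −0.28 to 0.26).

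Over all regions of the class I genes, differences were found in both directions, more of them lower than higher in Dll1+ by rank, and each lay outside the strongest start-site region of its gene. Of the 36 regions in both lists, 6 ranked lower in Dll1+ by at least 10 points (16.7%, against 24.9% of all regions in both lists), and 1 ranked higher (2.78%, against 15.1%). In scaled reads, 3 were lower in Dll1+ by at least 1.5-fold (8.33%, against 12.3%) and 1 was higher (2.78%, against 12.5%). This split depends on the scaling: with the genome-wide backgrounds in place of the median ratio, 3 were lower (8.33%, against 6.21%) and 3 higher (8.33%, against 23.6%), the higher ones being H2-K1 at 18914 bp, H2-D1 at 891 bp and Tap2 at 1131 bp. With the median ratio, the 3 lower regions passed both calls (against 10.9% of all regions) and so did the higher one (against 9.22%). Each share with the median ratio was below that of all regions, but with 36 regions the Wilson intervals of the lower calls (7.87 to 31.9% by rank, 2.87 to 21.8% by reads) included it. That of the 1 higher region ran from 0.492 to 14.2%, which lay below the 15.1% by rank and included the 12.5% by reads. The regions past both calls are described one by one because they are the members that differed most, which is how they were picked out.

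**Figure D2:**
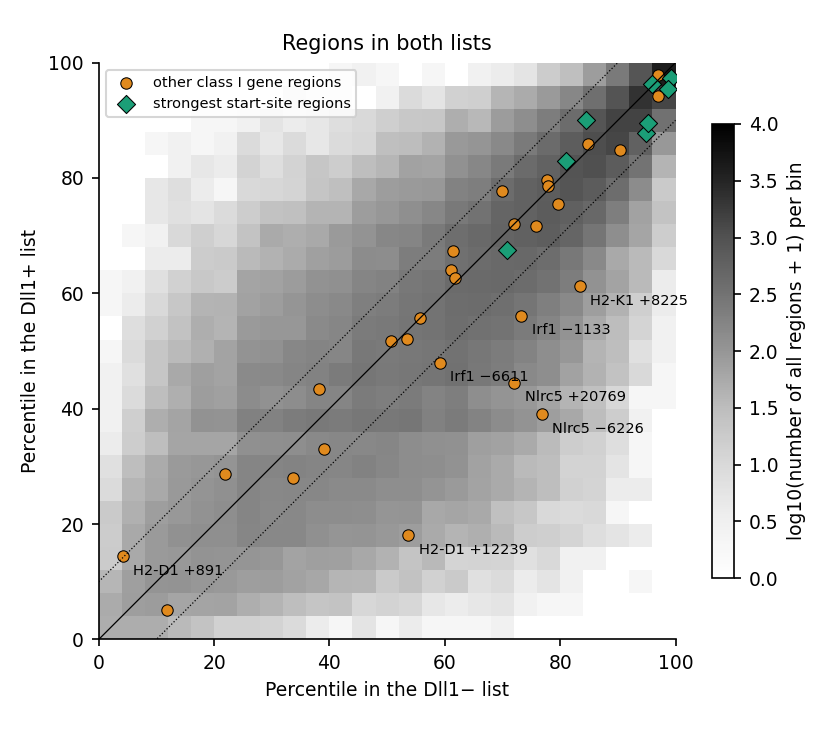
Percentile in the Dll1− list (horizontal) against the Dll1+ list (vertical) for the 36 class I gene regions in both lists, over the number of all 79153 such regions per bin (grey, log10 scale). Dotted lines are 10 points from equality and labels give the gene and the distance in bp from its nearest start; 6 labelled regions lie below the band and 1 above it.

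Nlrc5, the transactivator gene, held 2 of these. A region 6226 bp upstream of its start (chr8:94428012-94428319), in an intron of the neighbouring 9330175E14Rik, had a fold of 4.64 and 21 reads in Dll1+ against 8.66 and 70 reads in Dll1−. It stood 37.7 points lower in Dll1+, with a scaled log2 ratio of −1.03 (interval −1.81 to −0.31), the lowest of the 36. A second region, 20769 bp downstream of the nearest of the 4 annotated Nlrc5 starts and in an intron (chr8:94493323-94493742), had a fold of 5.07 and 30 reads against 7.73 and 93 reads. It stood 27.5 points lower in Dll1+, with a ratio of −0.93 (interval −1.57 to −0.32). At these regions Nlrc5 went toward Dll1−, while its start-site region went toward Dll1+ without reaching a call.

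The other regions of Nlrc5 away from its start passed neither call, but they had few reads (19 to 52 in Dll1+). At each of them, that at 19590 bp included, the interval of the read ratio reached past 1.5-fold. The intronic region at 13298 bp downstream had percentiles of 78.6 in Dll1+ and 77.9 in Dll1−, and the one in a coding exon at 19590 bp had 72.0 and 71.9. The remaining 3, at 7054, 8933 and 3322 bp downstream of their nearest starts, had rank differences between −5.99 and 6.81 points. In all, 5 of the 8 regions of Nlrc5 ranked higher in Dll1+ and 3 lower.

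The 151 bases around the Dll1− summits of the Nlrc5 regions that differed are shown from GRCm38.p6, plus strand, with the matches to the 6 motifs in capitals.
Nlrc5, 6226 bp upstream, chr8:94428082-94428232: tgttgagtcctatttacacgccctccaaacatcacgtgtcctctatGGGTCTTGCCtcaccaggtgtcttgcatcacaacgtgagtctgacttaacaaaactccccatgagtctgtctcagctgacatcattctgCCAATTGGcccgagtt
Nlrc5, 20769 bp downstream, chr8:94493495-94493645: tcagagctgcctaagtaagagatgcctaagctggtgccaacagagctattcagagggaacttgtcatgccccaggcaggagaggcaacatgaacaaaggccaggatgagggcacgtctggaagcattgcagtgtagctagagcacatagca
The first held an NF-kB core and the Y box, and the second held none of the 6 motifs.

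H2-D1 held regions on both sides. The intergenic region 12239 bp downstream of its start (chr17:35274820-35275119) had a fold of 3.32 and 16 reads in Dll1+ against 5.31 and 49 reads in Dll1−. It stood 35.5 points lower in Dll1+, with a scaled log2 ratio of −0.91 (interval −1.82 to −0.07). The region in the coding exons 891 bp downstream (chr17:35263386-35263856) was the one that ranked higher in Dll1+, by 10.3 points, with 62 and 65 reads and a ratio of 0.64 (interval 0.11 to 1.16). It was weak in both lists, at percentiles 14.4 and 4.14.

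The regions upstream of H2-D1 and at 7104 bp downstream did not differ by either call. The region 7833 bp upstream had percentiles of 51.8 in Dll1+ and 50.6 in Dll1−, and the one at 7104 bp downstream had 52.1 and 53.4. A region 13938 bp downstream (chr17:35276469-35276868) was in the Dll1− list alone, at percentile 53.3 with 42 reads. Scaled by the median ratio, 25.8 reads in Dll1+ would correspond to it. The fewest reads of any Dll1+ row on the genome-wide background were 9, which is not a calling threshold. The Dll1+ background at this region is not known, so whether depth left it out of that list was not tested. The neighbouring regions at 12239 and 13938 bp were thus lower in Dll1+ or not in its list.

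H2-K1 had 3 further regions, all downstream. The farthest, at 21406 bp (chr17:33978549-33979154), was almost as strong as the promoter, with folds of 16.1 and 18.2 and percentiles of 94.2 and 97.04. It lies at the start of H2-K2, which is annotated as a pseudogene and was not among the genes to which regions were assigned. The region at 18914 bp had percentiles of 55.7 and 55.8.
The region at 8225 bp (chr17:33991744-33992321) stood 22.1 points lower in Dll1+, with folds of 6.81 and 10.4. Its reads did not follow: 56 and 97 reads gave a scaled log2 ratio of −0.09 (interval −0.59 to 0.40). Its local background was 1.97 times the genome-wide background in Dll1+ and 1.16 times in Dll1−, so the rank and the reads disagreed on this region.

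Irf1 had 2 regions lower in Dll1+ by rank. The region 1133 bp upstream of its start (chr11:53768699-53769064), which also reached into the start-site window, had folds of 6.21 and 7.95 and 122 and 280 reads, stood 17.1 points lower in Dll1+, and had a scaled log2 ratio of −0.49 (interval −0.81 to −0.18), short of 1.5-fold. The region 6611 bp upstream (chr11:53762595-53764212) stood 11.2 points lower, with 98 and 184 reads and a ratio of −0.20 (interval −0.57 to 0.16). Its strongest summits in the lists were 557 bp apart, so these values do not describe the same summit.
The region 14790 bp upstream had the reverse pattern, with a rank difference of −5.54 points, inside the band, and 136 against 332 reads, a ratio of −0.58 (interval −0.88 to −0.29), just short of 1.5-fold. The regions at 17275 and 7971 bp upstream ranked higher in Dll1+, by 7.80 and 0.978 points. The interval of the read ratio lay below 0 for 2 of the 6 regions of Irf1 and above 0 for none, and with the genome-wide backgrounds below 0 for 1 (at 14790 bp) and above 0 for 1 (at 7971 bp).

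The transporter genes held 2 of the 3 regions found in 1 list. Tap2 had a strong intergenic region 15367 bp downstream of its start (chr17:34218361-34219428), with folds of 19.6 and 18.1 and percentiles of 97.8 and 96.9, the strongest in Dll1+ of all 39. Its intronic regions at 2273 and 1131 bp had rank differences of −4.15 and 6.01 points. A further intronic region of Tap2, at 7211 bp (chr17:34210609-34210868), was the one found in the Dll1+ list alone, with 15 reads at percentile 14.5. Tap1 had a region 16702 bp upstream at percentiles 71.7 and 75.8. Beside it, a region 16266 bp upstream (chr17:34171180-34171394) was in the Dll1− list alone, with 31 reads at percentile 31.7. Scaled by the median ratio, 19.0 reads in Dll1+ would correspond to this region.

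Tapbp and Psmb8 had all their regions in both lists. The regions of Tapbp at 823 and 1300 bp downstream were weak, at percentiles of 5.03 and 28.0 in Dll1+ and 11.9 and 33.7 in Dll1−, and all 3 regions of Tapbp ranked lower in Dll1+. Psmb8 had a region 4746 bp upstream, in an intron of Tap1, at percentiles 85.9 and 84.9, and one 514 bp downstream, in its 5′ UTR, at 79.7 and 77.6. Both went toward Dll1+ by less than 3 points, and the start-site region went toward Dll1− by 5.57 points.

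**Figure D3:**
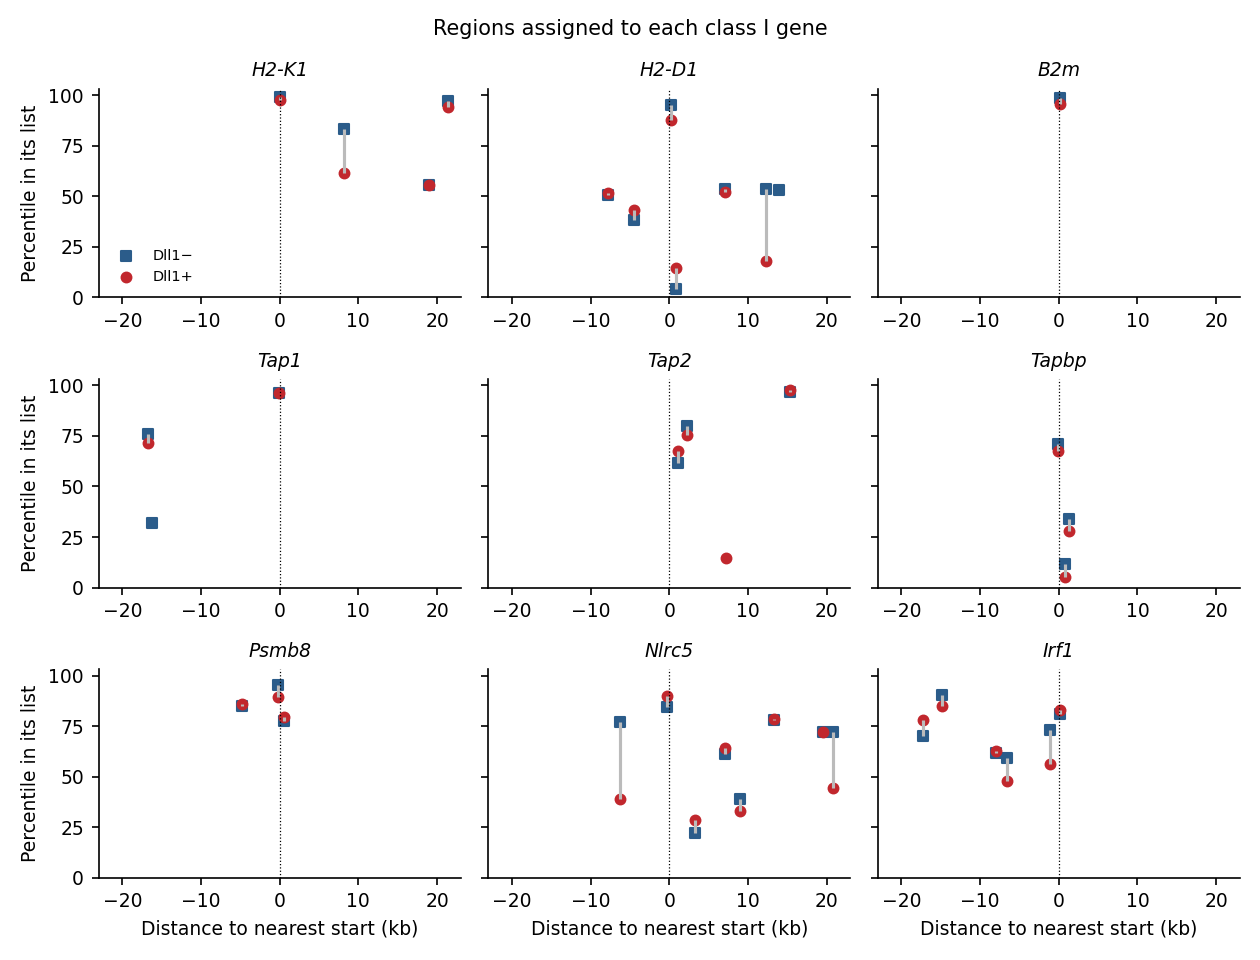
Percentile of fold enrichment (vertical axis, within the own list) of every region of each class I gene against its distance in kb from the nearest start of that gene (horizontal axis, downstream to the right), in Dll1+ (circles) and Dll1− (squares). Grey lines join the values of 1 region; a lone symbol is a region in 1 list, 2 in Dll1− (H2-D1 and Tap1) and 1 in Dll1+ (Tap2).

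Over all 36 regions, 16 ranked higher in Dll1+ and 20 lower, with a median difference of −1.58 points, against −1.66 over all regions in both lists, of which 41.0% ranked higher. Scaled reads were higher in 18 and lower in 18, an even split near the one that the scaling gives all regions. Scaled by the genome-wide backgrounds instead, 30 of the 36 were higher in Dll1+ (83.3%) and 6 lower, against 69.8% higher of all regions. The interval of the ratio lay above 0 for 3 regions (8.33%, against 16.4% of all regions), H2-K1 at 18914 bp, H2-D1 at 891 bp and Tap2 at 15367 bp, and below 0 for 5 (13.9%, against 15.8%), Nlrc5 at −6226 and 20769 bp, H2-D1 at 12239 bp and Irf1 at −14790 and −1133 bp. The genome-wide backgrounds turned this split to 11 above 0 (30.6%, against 31.5%) and 3 below (8.33%, against 6.96%), those of Nlrc5 and Irf1 at −14790 bp. The quartiles of the rank difference were −5.77 and 1.34 for the class I genes and −9.97 and 4.47 for all regions.

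**Figure D4:**
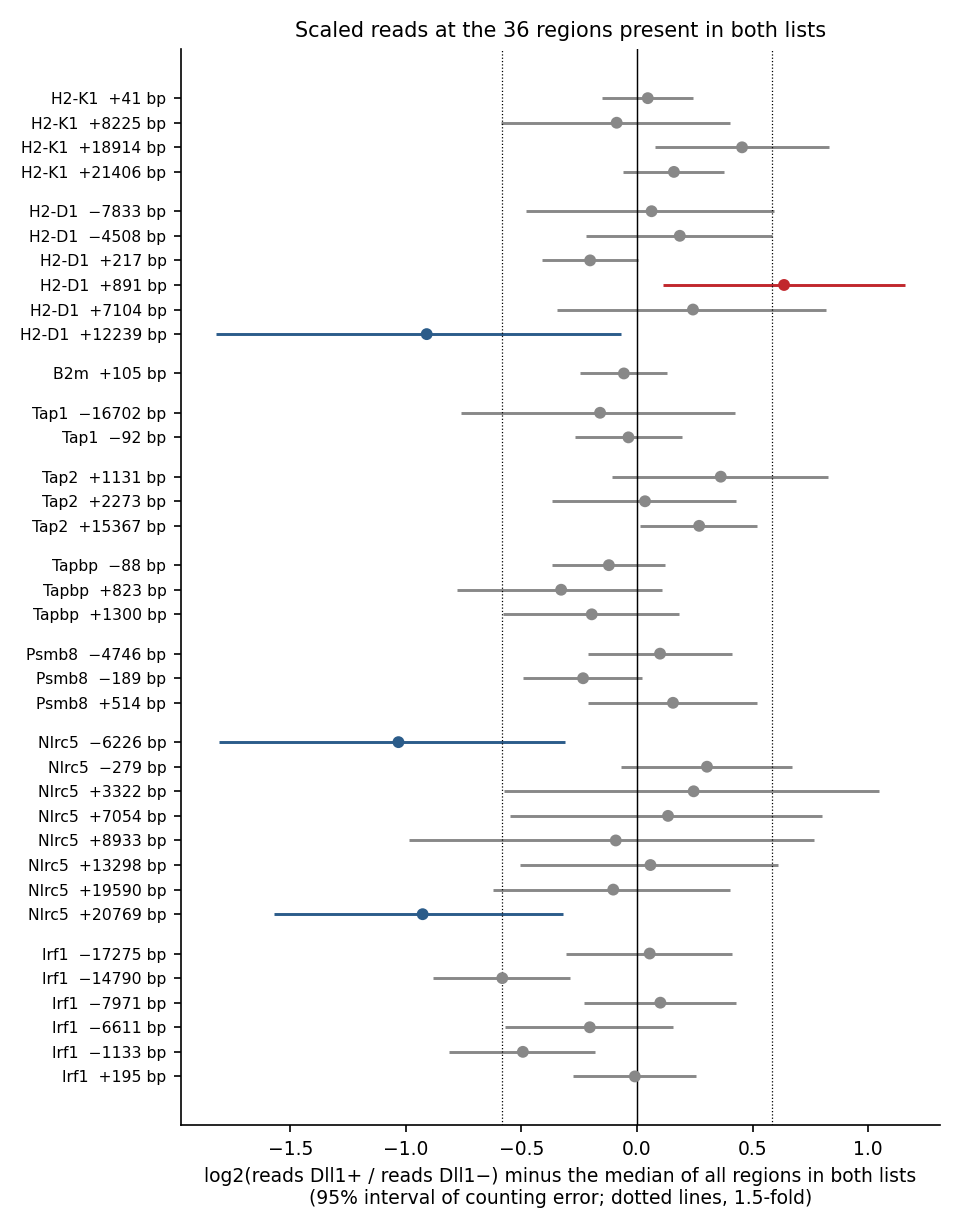
Scaled log2 ratio of reads (Dll1+ over Dll1−, horizontal axis) at the 36 regions in both lists, named by gene and distance in bp from the nearest start, with 95% intervals that cover counting error only. Regions past 1.5-fold (dotted lines) are coloured, 3 lower and 1 higher in Dll1+.

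Of the 6 motifs, the IRF core had the share at the summits that differed most, as a ratio, from that of all regions. It was within 100 bp of the strongest summit in 8 of the 39 regions (20.5%, Wilson interval 10.8 to 35.5), against 2.33% of all 119215 union regions and 1.5% of the 15152 start-site regions. The sites are shown with 5 bases on each side, on the strand that spells the core, so that their letters can be compared. The sites of B2m, Tapbp and Nlrc5 lie in start-site regions.
B2m, 105 bp downstream, chr2:122147543-122147562: aacatGAAACTGAAAatggg
Psmb8, 514 bp downstream, chr17:34198340-34198359: gaagtGAAAGCGAAAgccac
Tap2, 1131 bp downstream, chr17:34204496-34204515: gaagtGAAAGCGAAAgccgc
Tap2, 15367 bp downstream, chr17:34218943-34218962: tctagGAAACAGAAAcctag
Tapbp, 88 bp upstream, chr17:33919630-33919649: agaagGAAAATGAAAgtgaa
Nlrc5, 279 bp upstream, chr8:94434388-94434407: ctgtgGAAACTGAAAgtggc
Irf1, 6611 bp upstream, chr11:53763031-53763050: ggcaaGAAAGCGAAActcaa
H2-D1, 891 bp downstream, chr17:35263752-35263771: aaactGAAAGGGAAAccggt
The distances are those of the region midpoints. The same 10 letters, GAAAGCGAAA, were at Psmb8, Tap2 and Irf1. All 8 regions were in both lists, and H2-D1 and Irf1 held the 2 that passed the rank call, in opposite directions.

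The other motifs are given as shares of the 39 regions, of all regions and of start-site regions, in that order. The NF-kB core was in 51.3% of the 39 regions, 29.9% of all regions and 58.2% of start-site regions, and the X2 core in 25.6%, 12.8% and 24.8%. The Y box was in 28.2%, 23.8% and 30.6%. The GAS element was in 12.8%, 6.92% and 4.17%. The AP-1 site was in 7.69% (3 regions), 21.6% and 6.90%. The 39 regions mix start-site and distal regions, and the shares were not compared at matched base composition.

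The heavy chain regions are less certain than the others, because the authors' treatment of reads that match several places is not given in the sources used here. Of the words of 31 bases in the 11 regions of H2-K1 and H2-D1, a median of 83.7% per region (46.5% to 100%) occurred once in the chromosomes of GRCm38, and 1 region had unique words only. In the 28 regions of the other genes the median was 100%, with unique words only in 20. The share was 86.2% in the start-site region of H2-K1, 83.7% in that of H2-D1, 66.2% in the H2-D1 region at 891 bp, 75.9% in that at 12239 bp and 59.2% in that at 13938 bp. In the Nlrc5 regions that differed it was 90.6% (upstream) and 100% (downstream).

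Other genes of the class I pathway were read in the same way. Of 21, 19 had a start-site region in both lists and 2 (Psmb10, a further immunoproteasome subunit, and H2-Q10) had one in neither. The median rank difference of the 19 was −0.742 points, with 1 past 10 points in each direction (against 15.9% of all genes in either direction). Tapbpl, a tapasin relative, fell lowest at −16.8 points, though 50 and 73 reads gave a scaled log2 ratio of 0.16, followed by the proteasome subunit Psmb7 (−9.86) and Cd1d1 (−6.97). H2-Q7 was highest at 11.2 points, followed by H2-T23 (5.23) and H2-Q6 (4.73), which are nonclassical class I genes.
In scaled reads, H2-Q6 (134 and 102 reads, log2 1.10, interval 0.72 to 1.48) and H2-T23 (104 and 95, log2 0.84, interval 0.42 to 1.25) were past 1.5-fold higher in Dll1+, and Psmb6, a constitutive proteasome subunit, was past 1.5-fold lower (120 and 327, log2 −0.74, interval −1.06 to −0.44), 3 of 19 against 8.96% of all genes. Scaled by the genome-wide backgrounds, Psmb6 (log2 −0.50) lost the call and H2-Q7 (0.76) and H2-M3 (0.65) gained it, which gave 4 higher and 0 lower, against 8.47% and 2.29% of all genes. H2-Q6 and H2-Q7 have near-identical copies in the H2-Q cluster, and how reads were divided among these is not known.

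All 21 regulators of the pathway had start-site regions in both lists. They comprised RFX and NF-Y subunits, Creb1, interferon receptors and their signalling genes, IRF genes, and NF-kB subunits. The median rank difference was −1.22 points, with 2 lower in Dll1+ by at least 10 points and 0 higher, against 15.9% of all genes in either direction, and 0 passed 1.5-fold in scaled reads, against 8.96%. The lowest were Nfkb1 (−19.1 points, scaled log2 ratio 0.00068, interval −0.38 to 0.37), Irf2 (−13.7, ratio −0.51, interval −0.79 to −0.24) and Jak2 (−8.69). The highest were Ifngr2, a chain of the interferon gamma receptor (6.59), Tyk2 (2.76) and Socs1 (2.74). For Nfkb1 the rank and the reads disagreed.

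**Figure D5:**
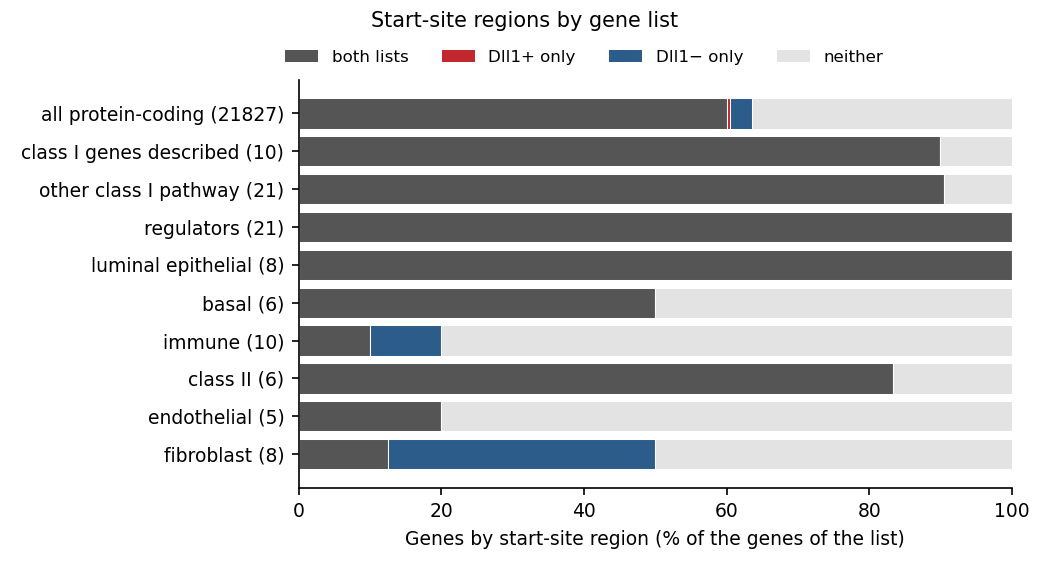
Share of the genes of each list (horizontal axis, % of genes, list sizes in brackets) with a start-site region in both lists, in 1 list or in neither, beside all 21827 protein-coding genes. The class I genes (9 of 10 in both) and their regulators (21 of 21) stand beside luminal markers (8 of 8), while immune markers are mostly in neither (8 of 10).

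Markers of cell types were read from the same lists, in which 60.0% of all protein-coding genes had a start-site region in both and 36.5% in neither, while 660 genes had one in the Dll1− list alone and 114 in the Dll1+ list alone. All 8 luminal epithelial markers had start-site regions in both lists, as did 3 of 6 basal markers, while the basal markers Krt5, Krt14 and Trp63 had none. Of 10 immune markers 8 had none, Ptprc (the gene of CD45) among them, Cd68 was in both lists and Csf1r in the Dll1− list alone. Of 5 endothelial markers 1 (Kdr) was in both lists. Of 8 fibroblast markers 1 was in both (Pdgfra, −11.3 points), 3 were in the Dll1− list alone (Col1a2, Pdgfrb and Fap) and 4 in neither.
Class II genes mark professional antigen-presenting cells. H2-Aa, H2-Ab1 and H2-Eb1 had start-site regions at percentiles 91.2 to 92.7 in Dll1+ and 88.6 to 93.5 in Dll1−, and Ciita, their transactivator, had none. Cd74 and Flt3 were lower in Dll1+, with rank differences of −24.6 and −56.2 points, with 42 and 104 reads at Cd74 and 17 and 83 at Flt3. The markers of other cell types past 10 points or in 1 list were thus lower in Dll1+ or not in its list, as were the Nlrc5 regions at −6226 and 20769 bp and the H2-D1 regions at 12239 and 13938 bp, and their part in those differences was not tested. This direction was not particular to them. The luminal markers had a median rank difference of −6.29 points, with 0 past 10 points. Of all regions in both lists, 24.9% ranked lower in Dll1+ by at least 10 points and 15.1% higher.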

How the data were processed

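ATAC-seq was analysed in 3 Dll1+ and 4 Dll1− samples of sorted MMTV-PyMT tumour cells. The authors processed the replicates of each group together with the ENCODE ATAC-seq pipeline and deposited the optimal peak list of each group, 132872 rows for Dll1+ and 148923 for Dll1−. The aligner, the peak caller and its thresholds are not given in the sources used here. The deposited fold enrichment is a ratio of reads at the summit to local background, and the deposited −log10 p-value is that of the authors' peak caller. The submitters' processing notes name the builds GRCm38 and mm10. The result of 1 marker list is not reported here. The later count table and DESeq2 test of the authors were not analysed here.

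Reads and background were recovered from fold and −log10 p under a Poisson model (tolerance 0.01), for 100% of Dll1+ rows and all but 1 Dll1− row, after the recovery was tested on simulated data. Start sites were those of protein-coding transcripts in the basic GENCODE M21 annotation. Coordinates are 1-based. Intervals (95%, Wilson for shares, exact conditional for read ratios) cover counting error only, and without molecular identifiers 2 reads may stem from 1 molecule. Every member was named, with its start-site region, regions in 1 list, its 3 strongest other regions and those past 10 points. Members and lists were chosen with earlier results of these data known. Python 3.11.15, pandas 2.3.3, numpy 2.4.6, SciPy 1.17.1 and Biopython 1.88 were used. The alternatives tried were stronger rows, equal row numbers, scaled depth, other start sites and windows, other ranks and other centres.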

Additional observations from a re-analysis of the deposited data

How the results depend on the processing

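The count of regions in both lists was 36 and ran from 26 (of 31, against 69.7% of all regions) to 37 over 7 alternatives. Restricted to rows above the median fold of their own list, the regions in the Dll1+ list alone went from 1 to 0 and those in the Dll1− list alone from 2 to 5 of 31 (against 9.85% and 20.4% of all regions at that setting); the construction drops weak rows, and the 5 were those of H2-D1 at 12239 and 13938 bp, Nlrc5 at −6226 and 20769 bp and Irf1 at −6611 bp. The other 6 alternatives kept 1 and 2. Genes with a start-site region in both lists were 9, and 10 with a window of 2500 bp on each side or the full annotation, an alternative chosen after seeing the data. Of the strongest start-site regions of the genes, those past 10 points were 0, but 1 when ranked among regions and 4 when ranked among promoters, 3 lower in Dll1+ (H2-D1 −17.7, Psmb8 −14.1 and B2m −11.3 points) and 1 higher (Nlrc5 16.2), against 26.1% of all genes. Centring on the genome-wide backgrounds (ratio 1.93) moved the 8 scaled log2 ratios to between 0.0076 and 0.54, so that the sign of 6 of them turned, and none passed 1.5-fold under any centre. That centre, applied to all 36 regions after seeing the data, took those past 1.5-fold from 1 higher and 3 lower to 3 and 3. Reading the closest pair of summits in place of the strongest moved the Irf1 start-site ratio from −0.01 to 0.29 by switching to a weaker pair (percentiles 39.4 and 24.7). Scaling depth removed few rows, since both lists go down to a −log10 p of 2.00, and it is a weak check. No paired analysis was possible because each deposited list joins all replicates of its population, and leaving out 1 replicate was not run for the same reason.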
